A study of Mus musculus with 6 samples.

Results

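The genes described here encode proteins that build the light-sensing outer segment of photoreceptors or carry cargo to it: Prph2, Rom1, Abca4, Prcd, Prom1, Cdhr1, Rp1, Tulp1 and Reep6. They were taken as every probe set annotated to 1 of these 9 gene symbols, which gave 10 probe sets of the 45037 non-control probe sets on the array. Rp1 has 2 probe sets and each other gene has 1, and all 10 passed the filter on low signal that left 27022 probe sets for testing.

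The outer segment is a modified cilium filled with stacked membrane discs. New discs form at its base, old ones are shed at its tip, and proteins and membrane made in the inner segment have to pass the connecting cilium to reach it. Disc rims, the growing edges at the base, the axoneme and the transport machinery of the inner segment each need their own set of proteins, and loss of many of them leads to photoreceptor degeneration in people and in mice.

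Whole mouse retina of postnatal day 21 was profiled on 6 short-oligonucleotide arrays, with RNA of 2 pooled retinas on each. The 3 arrays labelled knockout carry ERRβ -/-, loss of the orphan nuclear receptor encoded by Esrrb, on a mixed C57Bl/6 x Sv129 background, and the 3 wildtype arrays are of C57Bl/6. Every sample is of mixed sex and had standard chow and a regular light and dark cycle, and no treatment is named. Genotype and strain background differ together and cannot be told apart, the sources used here do not say how the allele was made, and in whole retina fewer cells of a type and less RNA per cell cannot be told apart.

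The deposited intensities lie on 2 scales. Replicates 1 and 2 of both groups have a trimmed mean near 500 and replicate 3 of both groups near 150, so the comparison was made within these scaling batches: 2 labelled knockout and 2 wildtype arrays near 500, and 1 of each near 150. Correlations of log2 signal across tested probe sets were 0.953 to 0.978 within a batch and 0.799 to 0.864 between batches. The probe set of Esrrb with the highest signal read 3435, 4012 and 2397 in labelled knockout replicates 1, 2 and 3, against 2951, 2934 and 1771 in wildtype, and the sources used here do not say whether it lies in the deleted part, so it does not check the labels. Rod markers (6 measured of 7 fixed) summed to 177980 and 200330 near 500 and 32793 near 150 in labelled knockout arrays, against 217700 to 222270 and 33586 in wildtype. Of the 6, limma called 0 changed, with 3 lower and 0 higher at an unadjusted p under 0.05. At that p 11.1% of all tested probe sets were lower and 9.33% higher. In a fit of the arrays near 500 alone 3 of the 6 were called lower and 0 higher. By that fit 7.7% of all tested probe sets were called lower and 5.94% higher. Lens markers stood out: 13 of 14 rose, with sums of 54100 to 62525 near 500 and 41810 near 150 in labelled knockout arrays, against 2865 to 3859 and 7298 in wildtype. Among pigment epithelium markers 4 of 10 rose, with sums of 49736 to 56664 and 3340 in labelled knockout arrays, against 43253 to 44695 and 2575 in wildtype. No marker of these lists had a signal of 0 on any array, and the part of lens and pigment epithelium RNA in the values below was not tested. Signal at the 3′ end over that at the 5′ end, which rises as RNA degrades, was, for Actb, 1.82, 1.66 and 1.67 in labelled knockout arrays, against 1.83, 1.89 and 2.32 in wildtype, and for Gapdh 0.719 to 0.731 against 0.712 to 0.779.

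Of the 10 probe sets, 3 fell in the arrays labelled knockout and none rose. In limma with the scaling batch as a block and a threshold of 0.05 on the adjusted p, the genes that fell were Abca4, Reep6 and Prcd. Over all tested probe sets 1.22% were called lower and 1.04% higher by the same rule. With the replicate number as a block in place of the batch, 2 of the 10 were called lower, where 0.396% of all were called lower and 0.344% higher. The signals left in labelled knockout arrays were 61.2% of wildtype for Abca4, 62.8% for Reep6 and 76.6% for Prcd. Prph2 stood at 74.5% and did not pass. The remaining genes, Rom1, Rp1, Prom1, Cdhr1 and Tulp1, did not pass, with log2 fold changes from -0.08 to 0.07 for their brightest probe sets. The median log2 fold change was -0.13 over the 10 probe sets, against -0.02 over all tested probe sets. The members' median was -0.27 near 500 and -0.02 near 150, and without labelled knockout replicate 1 the fitted median was -0.02 for the members and for all probe sets alike.

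**Figure D1:**
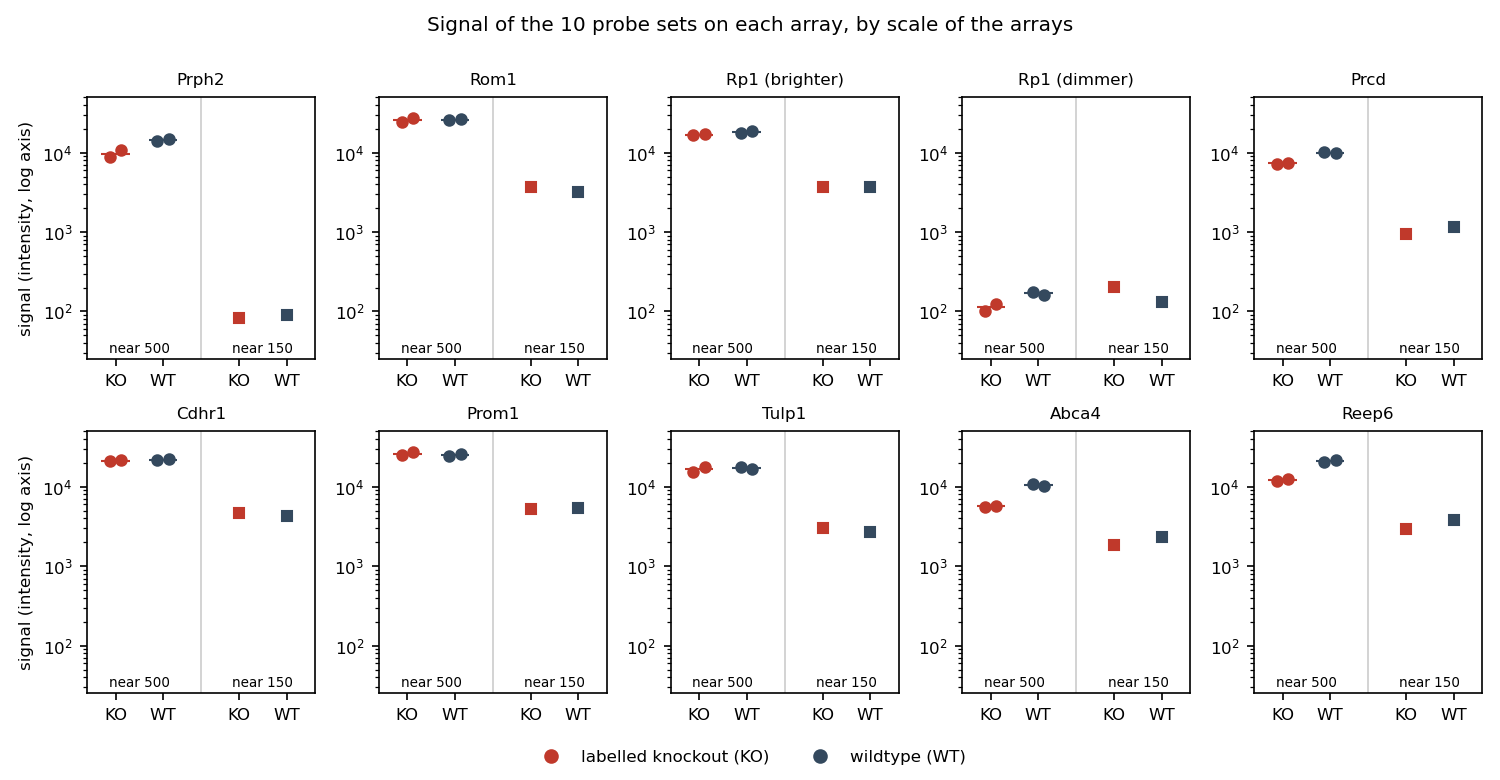
Signal (intensity, log axis) of the 10 probe sets on each of the 6 arrays, with labelled knockout (KO, red) left of wildtype (WT, dark) in the arrays scaled near 500 (circles, horizontal bars are means of 2) and near 150 (squares, 1 array per group). Both labelled knockout circles lie below both wildtype circles for Abca4, Reep6, Prcd, Prph2, Cdhr1 and both Rp1 probe sets. These are 7 of the 10, against 31.7% of all tested probe sets. Prph2 drops to 83.5 and 89.4 in the arrays scaled near 150.

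Promoter sequences are shown for 3 of the 4 genes with the lowest values, as the DNA nearest to where their transcription starts. Each is the 250 bases before an annotated RefSeq start in GRCm38.p6, 5′ to 3′ on the strand of the gene, and Reep6, the other of the 4, has none printed. The Abca4 stretch is chr3:122044210-122044459, plus strand. The Prcd stretch is chr11:116656858-116657107, plus strand, and the Prph2 stretch is chr17:46910228-46910477, plus strand. Capitals mark a match on either strand to AAGGTCA, the core of the element that ERR receptors bind, or to TAATCC, a site bound by the photoreceptor factor Crx.
Abca4: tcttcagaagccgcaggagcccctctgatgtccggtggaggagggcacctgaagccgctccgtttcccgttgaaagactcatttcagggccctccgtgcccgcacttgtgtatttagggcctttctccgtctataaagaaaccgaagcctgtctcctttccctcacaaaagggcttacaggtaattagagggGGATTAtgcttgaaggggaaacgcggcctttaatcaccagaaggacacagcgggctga
Prcd: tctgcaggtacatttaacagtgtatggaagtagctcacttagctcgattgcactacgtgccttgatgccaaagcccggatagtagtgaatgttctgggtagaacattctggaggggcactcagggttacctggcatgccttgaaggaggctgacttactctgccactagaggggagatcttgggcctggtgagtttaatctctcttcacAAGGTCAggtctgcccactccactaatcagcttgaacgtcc
Prph2: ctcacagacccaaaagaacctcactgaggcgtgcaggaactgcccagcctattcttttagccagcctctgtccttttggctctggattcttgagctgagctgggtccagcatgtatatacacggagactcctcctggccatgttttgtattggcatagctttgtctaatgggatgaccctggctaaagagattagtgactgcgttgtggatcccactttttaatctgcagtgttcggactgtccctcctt
In Prcd the capitals are AAGGTCA itself, 41 to 35 bases before the start. In Abca4 they are GGATTA, which is TAATCC read on the other strand, 58 to 53 bases before the start. The Prph2 window holds neither. The core AAGGTCA occurs in 4.08% and TAATCC in 6.25% of 32851 RefSeq promoter windows of this length, and the 2 motifs do not overlap each other in these windows. Windows of 7 of the 9 genes were in the table, 8 windows in all, and the matches shown are the ones found among them. A match describes letters and does not show that a factor binds there.

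The disc rim comes first. Prph2 encodes peripherin-2, a tetraspanin that shapes the sharply curved rims of the discs. Its probe set read 8707 and 10748 in labelled knockout arrays near 500, against 14114 and 14987 in wildtype. In the arrays scaled near 150 it read 83.5 in labelled knockout and 89.4 in wildtype. Both labelled knockout arrays near 500 therefore lie below both wildtype arrays, while the signals near 150 are close to each other and not far above the array medians of 61.5 and 57.3. The log2 fold change over all arrays was -0.42 ± 0.12 (SE, n = 3 per group; adjusted p = 0.0976 in limma), with a 95% interval of -0.69 to -0.16. Within the arrays near 500 it was -0.59, and in a fit of those 4 arrays alone Prph2 was called lower (adjusted p = 0.00273), as were Abca4, Reep6 and Prcd, where 7.7% of all probe sets were called lower and 5.94% higher.

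Prph2 also marks the largest gap between the sets of arrays. The mean signal near 500 was 137.3 times that near 150, a log2 difference of 7.10, against a median log2 difference of 1.57 over all tested probe sets. No other probe set of the 27022 had a larger one, and the next had 6.45. Both groups share this drop. It leaves the arrays near 150 with little Prph2 signal to compare, and its cause was not tested.

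**Figure D2:**
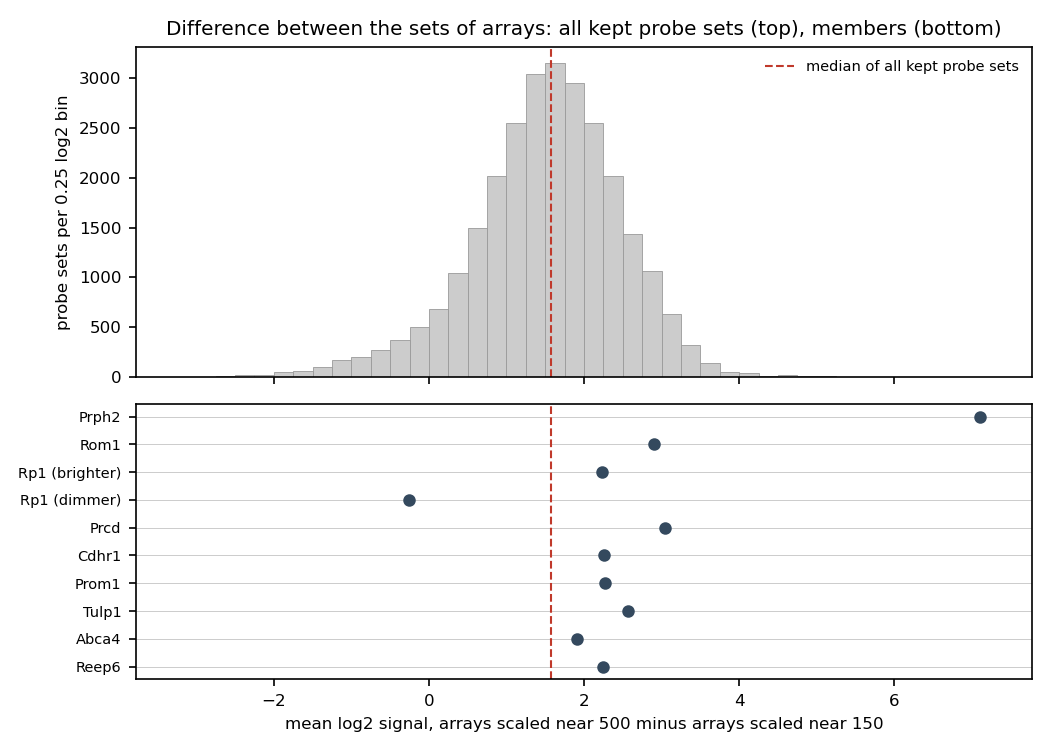
Top, number of probe sets by the difference in mean log2 signal between the 4 arrays scaled near 500 and the 2 scaled near 150, for all 27022 tested probe sets, with the median of 1.57 dashed. Bottom, the same difference for the 10 member probe sets. Prph2 at 7.10 lies beyond every other tested probe set, and the dimmer Rp1 probe set at -0.26 lies on the other side of the median.

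Rom1 encodes a tetraspanin that assembles with peripherin-2 in disc rims. It read 24285 and 27471 in labelled knockout arrays near 500, against 25510 and 26246 in wildtype, and 3724 against 3229 near 150. Near 500 the wildtype values lie between the labelled knockout values. The log2 fold change was 0.07 ± 0.080 (adjusted p = 0.682 in limma), with a 95% interval of -0.11 to 0.25. On each array the Prph2 signal can be set over that of its partner Rom1, a ratio that no scaling of a whole array changes and of which only the change between arrays can be read. This ratio was 0.359 and 0.391 in labelled knockout arrays near 500, against 0.553 and 0.571 in wildtype, and 0.0224 against 0.0277 near 150. Near 500 it was lower in labelled knockout, with a log2 change of -0.59, and no test was made of it. Near 150 it changed by -0.30, of which the higher Rom1 signal (0.21) made the larger part and Prph2 had -0.10.

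Abca4 encodes a transporter of disc rims that clears retinoid adducts from the disc membrane. Its probe set read 5591 and 5789 in labelled knockout arrays near 500, against 10883 and 10228 in wildtype, and 1832 against 2330 near 150. All labelled knockout values lie below the wildtype values of the same scale. The log2 fold change was -0.71 ± 0.11 (adjusted p = 0.0138 in limma), with -0.89 in the arrays near 500 and -0.35 in those near 150. Abca4 was also called lower with a replicate block (adjusted p = 0.0424). The call ended when any 1 of the 4 arrays near 500 was left out: adjusted p then ran from 0.0775 to 0.135, and the log2 fold change from -0.68 to -0.63.

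Prcd encodes a small protein anchored in disc membranes, and mutations in it cause progressive rod and cone degeneration in dogs and people. It read 7245 and 7434 in labelled knockout arrays near 500, against 10081 and 9748 in wildtype, and 940 against 1147 near 150. Each labelled knockout value is the lower within its scale. The log2 fold change was -0.39 ± 0.071 (adjusted p = 0.0293 in limma), with -0.43 near 500 and -0.29 near 150, the smallest of the 3 called decreases. It did not pass with a replicate block (adjusted p = 0.0833) or with all 45037 probe sets in the fit (adjusted p = 0.0519). Without any 1 of the 4 arrays near 500 adjusted p was 0.142 to 0.204.

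At the base of the outer segment, Prom1 and Cdhr1 act where new discs bulge out. Prom1 encodes prominin-1, a protein of membrane protrusions, and Cdhr1 encodes the photoreceptor cadherin, which marks the edges of the growing discs. Prom1 read 25059 and 27121 in labelled knockout arrays near 500, against 24731 and 26103 in wildtype, and 5294 against 5408 near 150. Cdhr1 read 21041 and 21448 in labelled knockout, against 21538 and 22200 in wildtype, and 4672 against 4323 near 150. For Prom1 the groups overlap near 500. For Cdhr1 both labelled knockout values are below both wildtype values near 500 (log2 change of -0.04), and the labelled knockout value is above wildtype near 150 (0.11). The fitted log2 fold changes were 0.01 ± 0.070 for Prom1 (adjusted p = 0.929) and 0.01 ± 0.069 for Cdhr1 (adjusted p = 0.953 in limma), with 95% intervals of -0.14 to 0.17 and -0.15 to 0.17. The signal of Prom1 over that of Cdhr1 was 1.19 and 1.26 in labelled knockout arrays near 500, against 1.15 and 1.18 in wildtype, and 1.13 against 1.25 near 150, so its direction differed between the sets of arrays.

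Rp1 encodes a microtubule-associated protein of the axoneme that helps to align the discs. Its brighter probe set read 16552 and 17011 in labelled knockout arrays near 500, against 17853 and 18449 in wildtype, and 3695 against 3741 near 150. Each labelled knockout value lies below the wildtype values of its scale by a small margin. The fitted change was -0.08 ± 0.067 on the log2 scale (adjusted p = 0.533 in limma), with a 95% interval of -0.23 to 0.07. The dimmer probe set read 100.1 and 125 in labelled knockout arrays near 500, against 176 and 160 in wildtype, and 202 against 133 near 150. Its direction turned between the sets of arrays, with -0.58 near 500 and 0.61 near 150, and its fitted value was -0.19 ± 0.27 (adjusted p = 0.739). It was the only member probe set with a higher mean signal near 150 than near 500, and its signal near 500 lay close to the medians of those arrays, 114 to 135.

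Cargo reaches the outer segment through transport from the inner segment. Tulp1, a tubby-like protein needed for the movement of rhodopsin and other outer segment proteins, read 15512 and 17778 in labelled knockout arrays near 500, against 17812 and 16581 in wildtype, and 3023 against 2709 near 150. The groups overlap near 500, and the log2 fold change was 0.02 ± 0.083 (adjusted p = 0.919 in limma), with a 95% interval of -0.17 to 0.21.

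Reep6 encodes a membrane-shaping protein of the endoplasmic reticulum that rods use in vesicle traffic. It read 11774 and 12532 in labelled knockout arrays near 500, against 20822 and 21857 in wildtype. Near 150 it read 2956 in labelled knockout and 3872 in wildtype. Every labelled knockout value is below the wildtype values of its scale, and near 500 the gap between groups, 0.81 on the log2 scale in size, exceeds the gaps of 0.09 and 0.07 between replicates of labelled knockout and wildtype. The log2 fold change was -0.67 ± 0.094 (adjusted p = 0.0089 in limma), with -0.81 near 500 and -0.39 near 150. It also passed with a replicate block (adjusted p = 0.0294). Leaving out 1 of the 4 arrays near 500 ended the call in each case, with adjusted p of 0.0537 to 0.107 and log2 fold changes of -0.66 to -0.61.

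**Figure D3:**
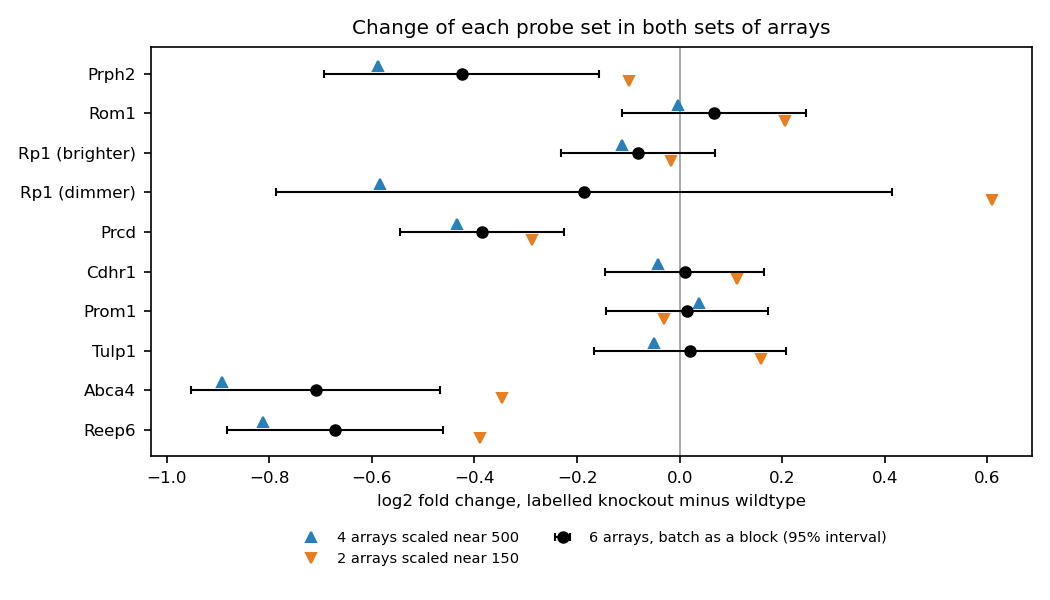
Log2 fold change (labelled knockout minus wildtype) of each probe set. Black points are the fit over 6 arrays with 95% intervals, blue triangles the 4 arrays scaled near 500 and orange triangles the 2 arrays scaled near 150. Abca4, Reep6, Prcd, Prph2 and the brighter Rp1 probe set are below 0 in both sets of arrays. Labelled knockout was below wildtype throughout both sets for these 5 and for 17.2% of all tested probe sets. The dimmer Rp1 probe set has -0.58 near 500 and 0.61 near 150.

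The decreases were smaller near 150. For the 4 lowest genes the log2 changes near 500 and near 150 were -0.89 and -0.35 for Abca4, -0.81 and -0.39 for Reep6, -0.59 and -0.10 for Prph2, and -0.43 and -0.29 for Prcd. A test of this difference, the interaction of group and batch in limma, called none of the 10 probe sets. Its adjusted p was 0.07 for Abca4, 0.134 for Reep6, 0.222 for Prph2 and 0.596 for Prcd. At an unadjusted p under 0.05 it held 4 of the 10, against 15.7% of all tested probe sets. These were Abca4, Reep6, Prph2 and the dimmer Rp1 probe set, whose direction turned between the sets of arrays, and not Prcd. After adjustment 1.19% of all were called. Counted by order alone, 7 of the 10 probe sets had both labelled knockout arrays near 500 below both wildtype arrays and none had them above, against 31.7% and 26.9% of all tested probe sets. With the arrays near 150 added, 5 of the 10 probe sets had labelled knockout below wildtype throughout both sets of arrays, those of Prph2, Prcd, Abca4, Reep6 and the brighter one of Rp1, and 17.2% of all tested probe sets did.

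The same genes were set beside lists of related genes, each gene represented by its brightest tested probe set. In phototransduction, the chain of outer segment proteins that turns light into a change of membrane current, 5 of 22 measured genes fell and 1 rose, with a median of -0.33. That median was -0.46 near 500 and -0.02 near 150. At an unadjusted p under 0.05, 14 were lower and 1 higher, where 11.1% of all tested probe sets were lower and 9.33% higher. The 6 calls became 2 or 3 when any 1 array near 500 was left out. In the arrays near 500 alone 13 genes were called lower and 1 higher, where 7.7% of all tested probe sets were called lower and 5.94% higher. The exchanger gene Slc24a1 had -0.88, the phosphodiesterase chaperone gene Aipl1 -0.73, and the cyclase activator genes Guca1a and Guca1b -1.83 and -0.68. The interaction of group and batch in limma was called for Slc24a1 (adjusted p = 0.0205) and Guca1a (0.0111), not for Aipl1 (0.381) or Guca1b (0.283). Slc24a1 had -1.12 near 500 and -0.41 near 150, and Guca1a -2.11 and -1.26. Among genes of the list that did not pass over all arrays, the interaction was also called for Rgs9 and Pde6a. Rgs9 had -1.42 near 500 and 0.54 near 150, and Pde6a -0.67 and 0.04. Rgs9bp, an anchor of the complex that ends the light response, had -0.58, a call lost with a replicate block (adjusted p = 0.0775). The gene that rose was Cngb1, a subunit of the rod channel (0.34, adjusted p = 0.0428, and 0.105 with a replicate block). Other genes of disc membrane and outer segment structure numbered 12 measured, with a median of -0.06, and limma called none of them. At an unadjusted p under 0.05, 3 were lower and 4 higher, beside the same 11.1% and 9.33% of all tested probe sets. In the arrays near 500 alone 5 were called lower and 3 higher, beside the same 7.7% and 5.94% of all tested probe sets. Fscn2, an actin bundling protein of photoreceptors, had the highest value of this list over all arrays, 0.56, and did not pass (adjusted p = 0.104 in limma). Its log2 change was 0.85 near 500 and -0.01 near 150.

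Of 42 measured genes of the cilium and of photoreceptor protein traffic 1 rose and none fell, with a median of -0.05. At an unadjusted p under 0.05, 9 were lower and 8 higher, where 11.1% of all tested probe sets were lower and 9.33% higher. In the arrays near 500 alone 6 were called lower and 6 higher, where 7.7% of all tested probe sets were called lower and 5.94% higher. With 1 array near 500 left out 0 or 1 were called. The gene that rose was Myo7a, a myosin of the photoreceptor cilium and of the pigment epithelium, which had a log2 value of 0.87 ± 0.11 (adjusted p = 0.00549 in limma). Its direction is that of the pigment epithelium markers, whose median was 0.59. The mean log2 signal of Myo7a near 500 exceeded that near 150 by 2.21, against a median of 4.59 for those markers. Whether Myo7a and those markers share a source was not tested. Cc2d2a (-0.48, adjusted p = 0.0563) lay nearest to the threshold among those not called.

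Family members of the 9 genes were described in the same way. Reep1 to Reep5 ran from -0.21 for Reep4 to 0.14 for Reep5, none passed in limma, also at an unadjusted p under 0.05, and Reep6 at -0.67 lies outside that range. In the tubby family Tub had -0.36 and lay at the threshold (adjusted p = 0.0501), Tulp3 had -0.23 (adjusted p = 0.374), and Tulp1 had 0.02. In the arrays near 500 alone 1 of the 2 genes Tub and Tulp3 was called lower, where 7.7% of all tested probe sets were. Of 20 measured tetraspanins other than Prph2 and Rom1 limma called none, and their median was 0.11. At an unadjusted p under 0.05, 1 of them was higher, where 9.33% of all tested probe sets were higher. In the arrays near 500 alone 3 of them were called higher and 0 lower, where 5.94% of all tested probe sets were called higher and 7.7% lower. Among 9 measured Abca genes other than Abca4 the single call was Abca13, which was lower (adjusted p = 0.0272). Its signals were 30.1 and 31.2 in labelled knockout arrays near 500, against 605 and 646 in wildtype, and 23.0 against 44.9 near 150. All but the wildtype signals near 500 lie under the array medians, so no fold is given. It was not called when any 1 array near 500 was left out, nor with a replicate block (adjusted p = 0.0644).

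**Figure D4:**
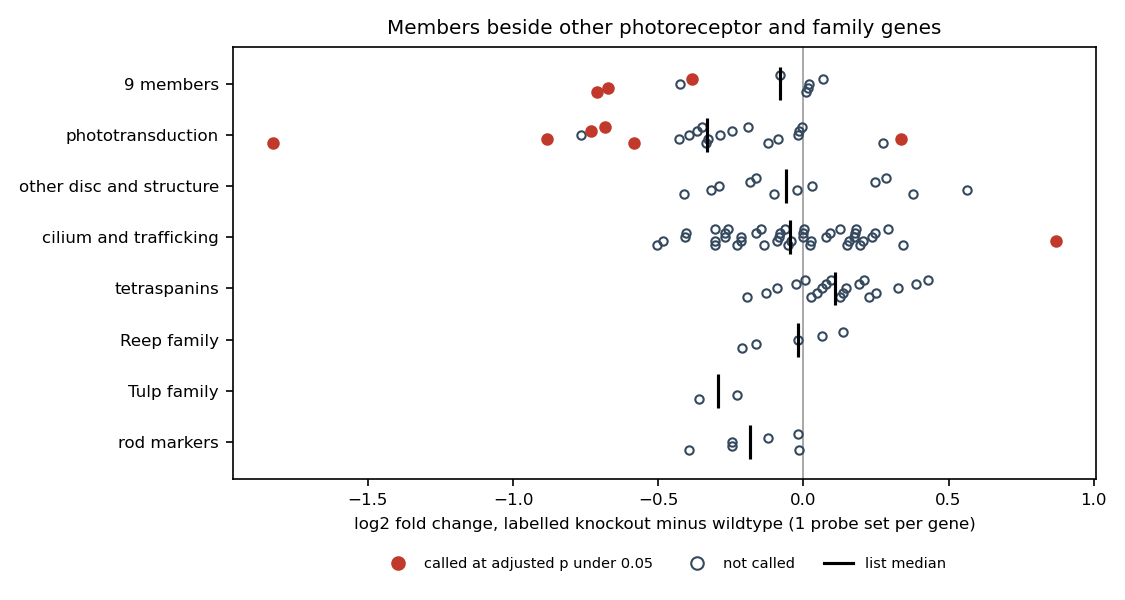
Log2 fold change (labelled knockout minus wildtype) of every measured gene of the members, of the related lists other than the Abca family, and of the rod markers, 1 probe set per gene. Filled points passed the test, open points did not, and vertical bars are list medians. The members fall into Abca4, Reep6, Prcd and Prph2 on the left and 5 genes near 0, and the phototransduction median is -0.33.

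Genes with the most similar pattern were sought among 12535 other genes, by the root mean square difference of log2 signals centred within each set of arrays over the 6 arrays. Reep6 was closest to Meg3 (0.03), Ppp3cc (0.03) and Guca1b (0.03). Abca4 was closest to Meg3 (0.03), Plcd3 (0.04) and Brwd1 (0.05). Prcd was closest to Dicer1, Ric8b and Camkk2, and Prph2 to Map3k10, Rps6kl1 and Rgs11. How selective this is differs between members: 53 genes lie within 0.1 of Abca4 and 58 within 0.1 of Reep6, against 2508 within 0.1 of Prom1 and 2365 within 0.1 of Cdhr1. With 6 arrays such likeness is a description of these arrays.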

How the data were processed

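Retina RNA, 2 retinas pooled per array, was measured on 6 arrays, with groups and replicate numbers taken from the sample titles. Nothing says that pools came from separate animals, so p-values cover only the spread among these samples, which may be technical. The deposited values are linear intensities, 1 per probe set and array; per the submitters' processing notes the tools were GCOS 1.4 and MAS5, with no role or order stated. In the deposited table the 2% trimmed mean of an array is near 500 or near 150, so values of different arrays share a scale only within these 2 sets. Arrays carry no read depth, and their small number limits the precision.

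Intensities were turned into log2 values with no further normalization. After 64 control probe sets were removed, probe sets with a mean log2 signal at or above the 40th percentile were kept, a geometric mean of 54.5. Groups were compared with limma 3.58.1 in R 4.3.3 (two-sided, eBayes with a variance trend, Benjamini-Hochberg over all 27022). Esrrb was fitted without the filter. Symbols came from the platform's annotation, updated by gene ID, in which 34945 probe sets had 1 symbol, 932 several and 9160 none. The fit was tested on simulated data, with added changes larger than those of the called members and equal in both sets of arrays. That test does not cover changes of the members' size.

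Named were all member probe sets and, from each list, the called genes up to 4 per direction by size. Rgs9bp, the fifth of the phototransduction genes called lower, lies outside that rule and was named after its values were seen. Rgs9, Pde6a and other genes named as nearest to the threshold or as the end of a range were singled out after their values were seen. Members, lists and the scaling batch as a block were chosen with earlier results of these data known. The 9 members were not tested as a list. Replicate numbers were checked for pairing: deviations from group means correlated at 0.57, 0.67 and 0.843. Each group mean was taken over arrays of both scales, so the scale difference enters the deviations of both groups alike. These correlations therefore cannot show whether the numbers pair the samples. Within the arrays near 500 the correlation was 0.0153, so no pairing was seen there.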

Additional observations from a re-analysis of the deposited data

How the results depend on the processing

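The direction of Abca4, Reep6, Prcd, Prph2 and the brighter Rp1 probe set was lower under all 15 alternatives. Not all of these are separate checks of direction. With no batch term, a replicate block, another filter or no trend, the fold change is the reported one by design. The arrays near 500 alone and the fits without either replicate 3 share the same fold changes. The count of member probe sets called lower, 3, became 0 with no batch term and 0 with eBayes without a trend, and ran from 0 to 4 when 1 array was left out. It was 0 without labelled knockout replicate 1 or 2 or wildtype replicate 1 or 2, and 4 without either replicate 3, a fit in which the other array near 150 adds nothing to the fold change. With no batch term 0 of 27022 probe sets were called by limma (118 at an unadjusted p under 0.05, 0 of them members), since the difference between the scales enters the error. Without a trend 4 members had an unadjusted p under 0.05, where 9.22% of all tested probe sets were lower and 7.25% higher at that p. After adjustment 6 of all probe sets were called lower and 13 higher, against 329 and 280 with the trend. With a replicate block 2 members were called, over all probe sets 107 lower and 93 higher; Prcd lost its call and no other member's call changed. None was called higher under any alternative. The arrays near 500 alone called 2082 lower and 1605 higher over all probe sets, and 522 and 433 were called with the filter at the 60th percentile, 220 and 185 with no filter. Leaving out an array gave 38 to 2209 lower and 39 to 1513 higher. Quantile normalization, within or across batches, kept all 3 calls. Changes near 0 reversed sign, with no call on either side: in the arrays near 500 alone Rom1 had -0.0026, Cdhr1 -0.0417 and Tulp1 -0.0494, and leaving out 1 array gave -0.0026 to 0.1376 for Rom1, -0.0417 to 0.0367 for Cdhr1, -0.0494 to 0.0956 for Tulp1, -0.0245 to 0.0406 for Prom1 and -0.5846 to 0.0196 for the dimmer Rp1 probe set. That probe set gave no value with the filter at the 60th percentile. The list of phototransduction genes had 6 calls and 0 with no batch term or without a trend. Without either replicate 3 it had 14, that of other disc genes 8 and that of tetraspanins 3.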

Other observations

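Among fixed markers of other retinal cells, limma called none of 7 cone, 8 Müller glia, 3 bipolar cell and 5 microglia markers, with median log2 fold changes of 0.04, 0.10, 0.16 and 0.15. At an unadjusted p under 0.05 the cone list had 1 higher, the Müller glia list 2 higher, the bipolar list 1 lower and 1 higher, and the microglia list 1 lower. At that p 11.1% of all tested probe sets were lower and 9.33% higher.

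The sets of arrays differ in more than scale for other transcripts too. Pigment epithelium markers had a median log2 difference of 4.59 between the arrays near 500 and those near 150, lens markers -0.34 and rod markers 2.65, against 1.57 over all tested probe sets and 7.10 for Prph2. Rpe65, the retinoid isomerase of the pigment epithelium, read 848 and 933 in labelled knockout arrays near 500, against 621 and 729 in wildtype, and 39.4 against 23.4 near 150. After Prph2, the named genes with the next largest differences were Rab3b (5.64), Men1 (5.61) and Dhrs7b (5.59). What separates these arrays was not tested, and the labels give no date or batch.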
